A study of Arabidopsis thaliana with 12 samples.

Results

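The genes described here are the nitrate transporters NRT1.1, NPF6.4, NRT2.1, NRT2.2, NRT2.4 and NRT2.5, the transporter partner NAR2.1, and the nitrate reductases NIA1 and NIA2 of Arabidopsis thaliana. These 9 genes, of 37336 gene IDs in the count tables, were picked by their identifiers, with earlier results of these data known. RNAseq counts came from 12 libraries of seedlings 7 days old, with 3 biological replicates in each of 4 groups. The groups were roots of the wild type Col-0 (WT), roots of the double mutant pi4kß1ß2, and leaf libraries labelled WT and pi4kß1ß2. The mutant carries T-DNA insertions in PI4Kß1 and PI4Kß2, which encode kinases that phosphorylate phosphatidylinositol to phosphatidylinositol 4-phosphate, and WT carries neither insertion. All plants grew untreated on agar with half-strength Murashige-Skoog salts and 1% sucrose, at 22 °C under long days, a medium that holds both nitrate and ammonium. For the root samples the study pooled the RNA of many plants per replicate, so that plant-to-plant variation was not measured.

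Roots take up nitrate with low-affinity carriers of the NPF (NRT1/PTR) family and with high-affinity carriers of the NRT2 family, and NRT2 proteins need the partner NAR2.1 to work at the plasma membrane. NRT1.1 is both a carrier and a sensor of nitrate. Inside the cell nitrate reductase, encoded by NIA1 and NIA2, reduces nitrate to nitrite, which plastids reduce further to ammonium for the synthesis of glutamine. NRT2.1, NIA1 and NIA2 are induced by nitrate in Arabidopsis, whereas NRT2.4 and NRT2.5 are known as genes of nitrogen-starved plants.

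The members lie on chromosomes 1, 3 and 5 of the TAIR10.1 assembly, and no member overlaps another annotated gene. NRT1.1 (AT1G12110) spans chr1:4105223-4109601 on the plus strand and has 5 exons. NPF6.4 (AT3G21670) spans chr3:7626757-7629205 on the minus strand with 4 exons. NIA1 (AT1G77760) spans chr1:29235721-29239484 on the minus strand with 4 exons, and NIA2 (AT1G37130) spans chr1:14158452-14161938 on the plus strand with 3 exons. NAR2.1 (AT5G50200) spans chr5:20436180-20437815 on the plus strand with 3 exons. NRT2.4 (AT5G60770, chr5:24444365-24447127) and NRT2.5 (AT1G12940, chr1:4416315-4418590) are both on the plus strand. NRT2.1 (AT1G08090, chr1:2524023-2526322, plus strand) and NRT2.2 (AT1G08100, chr1:2527170-2529120, minus strand) are neighbours whose 3′ ends face each other across 847 bases. Of the exonic windows of 75 bases, which is the read length, 5.72% in NRT2.1 and 7.26% in NRT2.2 occurred elsewhere in the genome, against 0% in the other members. Reads from those windows were left out of the counts as multi-hits, so the levels of both genes are slightly understated.

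The 300 bases before the annotated start are shown for the 3 genes that differed between the root genotypes, NIA1, NIA2 and NPF6.4, and for the neighbours NRT2.1 and NRT2.2. Each window is written 5′ to 3′ on the strand of its gene, from RefSeq's TAIR10.1, and capitals mark GAATC on either strand, the letters bound by the HRS1/NIGT1 repressors of nitrate genes.
NIA1, chr1:29239485-29239784, minus strand: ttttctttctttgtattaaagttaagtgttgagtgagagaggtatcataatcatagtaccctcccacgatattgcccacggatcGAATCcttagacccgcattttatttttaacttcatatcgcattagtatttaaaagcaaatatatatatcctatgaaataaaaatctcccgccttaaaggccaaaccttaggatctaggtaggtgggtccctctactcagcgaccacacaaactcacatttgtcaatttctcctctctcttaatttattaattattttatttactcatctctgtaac
NIA2, chr1:14158152-14158451, plus strand: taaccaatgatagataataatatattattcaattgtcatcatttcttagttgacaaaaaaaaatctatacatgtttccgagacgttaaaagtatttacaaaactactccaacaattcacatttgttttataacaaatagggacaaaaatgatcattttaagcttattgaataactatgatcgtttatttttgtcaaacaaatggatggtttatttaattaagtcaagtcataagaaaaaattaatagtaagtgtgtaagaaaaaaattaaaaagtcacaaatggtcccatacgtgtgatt
NPF6.4, chr3:7629206-7629505, minus strand: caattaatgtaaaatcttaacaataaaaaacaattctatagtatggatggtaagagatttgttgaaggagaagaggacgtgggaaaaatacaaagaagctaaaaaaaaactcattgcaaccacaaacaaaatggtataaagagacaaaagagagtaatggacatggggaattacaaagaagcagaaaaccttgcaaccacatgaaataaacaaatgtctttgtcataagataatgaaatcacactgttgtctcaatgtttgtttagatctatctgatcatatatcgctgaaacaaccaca
NRT2.1, chr1:2523723-2524022, plus strand: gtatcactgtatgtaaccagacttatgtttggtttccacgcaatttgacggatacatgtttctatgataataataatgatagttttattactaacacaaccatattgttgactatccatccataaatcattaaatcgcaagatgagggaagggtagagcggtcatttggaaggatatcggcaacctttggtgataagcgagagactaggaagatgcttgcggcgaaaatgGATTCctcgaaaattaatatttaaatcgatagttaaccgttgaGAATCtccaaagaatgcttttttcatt
NRT2.2, chr1:2529121-2529420, minus strand: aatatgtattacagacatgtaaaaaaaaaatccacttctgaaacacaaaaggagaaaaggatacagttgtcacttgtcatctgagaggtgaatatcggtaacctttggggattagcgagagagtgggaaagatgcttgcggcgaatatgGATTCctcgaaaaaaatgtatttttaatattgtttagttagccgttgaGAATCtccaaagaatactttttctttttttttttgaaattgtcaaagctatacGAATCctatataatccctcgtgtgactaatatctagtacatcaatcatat
The windows of the 9 members were searched on both strands for GAATC, for GACNCTT, taken here for the NIN-like proteins, and for the G-box CACGTG, with letters chosen after the values had been seen. GAATC occurred 3 times in NRT2.2 and NRT2.4, 2 times in NRT2.1 and NRT2.5 and 1 time in NAR2.1 and NIA1, and 45% of 27443 promoters of the same length held it. GACNCTT and CACGTG occurred in 0 of the 9 windows, against 8.54% and 7.09% of all promoters. The longest run shared by the windows of NRT2.1 and NRT2.2 was 22 bases, ccgttgagaatctccaaagaat. It begins 34 bases before the start of NRT2.1 and 110 bases before that of NRT2.2, and it holds one of the GAATC matches of each. A match is a description of the letters only, and the motifs do not overlap one another.

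The libraries held 38116716 to 46577151 reads counted on the strand of the library. Levels are given as normalized CPM, that is CPM scaled by TMM, the trimmed mean of M-values, over the 12 libraries. Counts on the opposite strand of the members were at most 30 in any library. PI4Kß2 was at 14.4, 16.2 and 13.99 CPM in WT roots and at 7.13, 7.36 and 6.75 CPM in pi4kß1ß2 roots, and PI4Kß1 was at 71.0 to 78.9 and 46.5 to 49.2 CPM. The leaf libraries did not separate in this way. PI4Kß2 was at 11.8, 4.64 and 12.0 CPM in the leaf libraries labelled WT and at 11.04, 6.399 and 6.84 CPM in those labelled pi4kß1ß2. By the level of PI4Kß2, replicate 2 labelled WT and replicate 1 labelled pi4kß1ß2 therefore went against their labels, and the leaf groups are called by their labels throughout. Not every gene did so, as NPF6.4 and the molybdate transporter MOT1 stayed with the labels in both libraries. Whether the libraries were exchanged was not tested. Some results of the leaf comparison, and of the genotype difference compared between organs, are also given without these 2 libraries. The comparisons of root with leaf always include both of them. The 8 leaf markers together were at 53662 to 65313 CPM in leaf libraries and at 122 to 418 CPM in root libraries, and the 10 root markers at 4408 to 7898 CPM in roots and at 1024 to 2313 CPM in leaves. Without the abundant PYK10 the other 9 were at 331 to 424 CPM in roots and at 38.6 to 94.4 CPM in leaves.

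Per kb of exon, which allows genes to be compared, the levels of the members spanned several orders of magnitude. NIA2 stood highest by group mean, at 137 ± 25.8 (SD, n = 3) normalized CPM per kb in WT roots and 313 ± 28.3 in leaves labelled WT. NRT1.1 was at 118 ± 16.8 and 91.7 ± 9.81, and NIA1 was at 99.7 ± 18.9 and 158 ± 31.6. In WT root replicate 3 NRT1.1 lay above NIA2, at 134 against 118. NIA2, NRT1.1 and NIA1 were at 83.5 normalized CPM per kb or more in every library. NAR2.1 was at 11.7 ± 2.17 and 17.4 ± 3.26, and NPF6.4 at 4.09 ± 0.182 and 13.1 ± 1.85. The 4 NRT2 genes were below 3 normalized CPM per kb in every library. The partner NAR2.1 was thus 8.79 to 74.1 times as high per kb as NRT2.1, depending on the library.

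**Figure D1:**
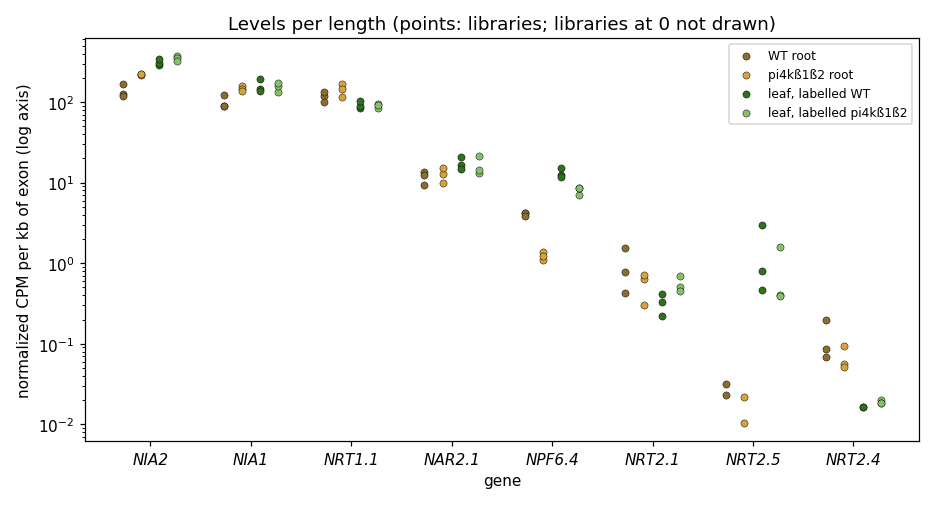
Levels per length of 8 members in the 12 libraries, as normalized CPM per kb of exon on a log axis, with 1 point per library and colours for the groups. NIA2, NIA1 and NRT1.1 lie at 83.5 or more in every library and the NRT2 genes below 3. Libraries at 0 and NRT2.2, with at most 1 count in a library, are not drawn.

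Both nitrate reductase transcripts were higher and NPF6.4 was lower in pi4kß1ß2 roots than in WT roots. Of the 9 members 6 passed the filter of 1 CPM in 3 of the 6 root libraries. Of these 6, 2 rose and 1 fell, by the quasi-likelihood test of edgeR, adjusted by Benjamini-Hochberg, against 26.6% of the 19694 genes tested, of which 11.3% rose and 15.2% fell. The median log2 fold change was 0.20 for these 6 and 0.01 for all genes tested.

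NPF6.4, a carrier of the same NPF6 subfamily as NRT1.1, was at 9.24, 9.30 and 8.58 normalized CPM in WT roots and at 3.08, 2.45 and 2.68 in pi4kß1ß2 roots. Every mutant library lay below every WT library. NPF6.4 was 3.30-fold lower in the mutant, a log2 fold change of -1.72 (SE 0.10, adjusted p = 4.8e-05, the quasi-likelihood test of edgeR, adjusted by Benjamini-Hochberg). The call was kept in all 13 alternatives tried, including each left-out replicate, over which the log2 fold change lay between -1.82 and -1.66. In these bulk samples fewer cells of a type and less RNA per cell cannot be told apart. Among the root markers, 7 of 10 were lower and 1 was higher in pi4kß1ß2 roots, and they ranged from TIP2;3 at 29.8% to PIN2 at 148% of the WT level. Their summed level was 62.7% of that in WT. PYK10, which makes up most of it, was at 61.3%, and the other 9 together were at 86.6%. Leaf markers were also scarcer in the mutant roots, at 122 to 224 CPM against 243 to 418 CPM, with 2 of 8 called lower, 0 higher and none at 0 in either genotype. The part of the root and leaf markers in the difference was not tested.

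NIA2, which supplies most of the nitrate reductase activity of Arabidopsis seedlings, was at 534, 407 and 378 normalized CPM in WT roots and at 693, 717 and 706 in pi4kß1ß2 roots. The groups did not overlap, and the mutant libraries lay closer together than the WT libraries. NIA2 was 1.60-fold higher in the mutant, a log2 fold change of 0.68 (SE 0.14, adjusted p = 0.0168, the quasi-likelihood test of edgeR, adjusted by Benjamini-Hochberg). NIA1, the second nitrate reductase gene, was at 383, 282 and 279 normalized CPM in WT roots and at 497, 457 and 439 in pi4kß1ß2 roots. Replicate 1 was the highest in both genotypes for NIA1, and the groups did not overlap. NIA1 was 1.47-fold higher, a log2 fold change of 0.56 (SE 0.15, adjusted p = 0.0417, the quasi-likelihood test of edgeR, adjusted by Benjamini-Hochberg). In roots 42.9% of all genes tested had groups that did not overlap. Both calls rested on few libraries. Leaving out WT replicate 2 or any mutant replicate ended the call of NIA2, with the adjusted p at most 0.0711, and leaving out any library other than WT replicate 1 ended that of NIA1, with the adjusted p at most 0.133, in the quasi-likelihood test of edgeR, adjusted by Benjamini-Hochberg. The log2 fold change stayed positive, from 0.58 to 0.85 for NIA2 and from 0.48 to 0.74 for NIA1. The call of NIA1 was also lost without the filter on low counts (adjusted p = 0.0708) and in the edgeR fit of all 12 libraries (adjusted p = 0.0567).

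The carrier and sensor NRT1.1 was at 264, 221 and 295 normalized CPM in WT roots and at 256, 373 and 324 in pi4kß1ß2 roots. The genotypes overlapped, and the log2 fold change of 0.29 (SE 0.18) did not pass the quasi-likelihood test of edgeR, adjusted by Benjamini-Hochberg (adjusted p = 0.297). NAR2.1 was at 17.8, 12.3 and 16.3 normalized CPM in WT roots and at 13.0, 17.0 and 19.9 in mutant roots, again overlapping, with a log2 fold change of 0.10 (SE 0.20, adjusted p = 0.757 in the same edgeR test). NRT2.1, the main high-affinity carrier of roots supplied with nitrate, was at 3.25, 0.913 and 1.64 normalized CPM in WT roots and at 0.643, 1.34 and 1.52 in mutant roots. Replicate 1 was the highest WT library and the lowest mutant library, and the log2 fold change of -0.72 (SE 0.55) did not pass the same edgeR test (adjusted p = 0.392). It was -0.12 without WT replicate 1 and -1.07 without WT replicate 2, and it was called in none of the 13 alternatives.

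The 3 remaining carriers were too low in roots to be tested. NRT2.4, an epidermal carrier of starved roots, had 7, 6 and 17 counts in WT roots and 5, 8 and 5 counts in pi4kß1ß2 roots. The summed WT level was 1.76 times that of the mutant, with a 95% exact binomial counting interval of 0.951 to 3.36, so that no difference was detectable at this depth. NRT2.5 had 2, 3 and 0 counts in WT roots and 1, 2 and 0 in mutant roots, and NRT2.2 had 0, 1 and 0 in WT roots and 0, 0 and 0 in mutant roots. A count of 0 allows up to 3 counts, which was 0.0535 to 0.103 normalized CPM depending on the library. Because PCR copies are not independent molecules, such intervals and limits reflect counting error alone.

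**Figure D2:**
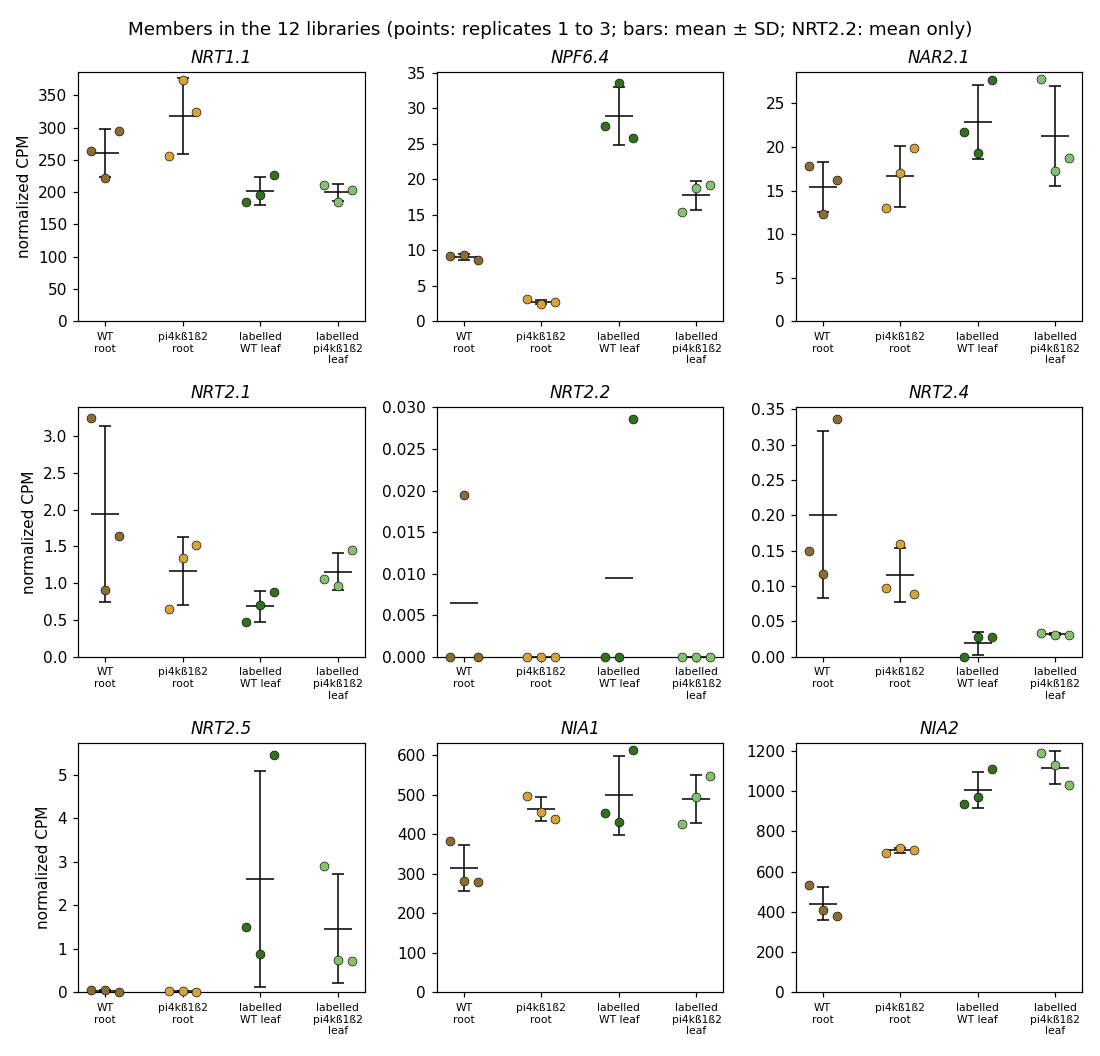
Normalized CPM of the 9 members, with 1 point per library, replicates 1 to 3 from left to right in each group, and bars for the mean ± SD (for NRT2.2 the mean only). The root groups do not overlap for NPF6.4, NIA1 and NIA2, and NPF6.4 of pi4kß1ß2 roots lies at 2.45 to 3.08 against 8.58 to 9.30 in WT roots. Each panel has its own linear axis starting at 0.

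The other genes of the pathway were followed in roots by 4 lists. Of the 19 other nitrate transporters and anion channels 16 were tested, of which 2 rose and 8 fell by the quasi-likelihood test of edgeR, adjusted by Benjamini-Hochberg, with a median log2 fold change of -0.45 against 0.01 for all genes tested. Over all genes tested 26.6% were called, 11.3% higher and 15.2% lower. NPF2.3, a carrier of the root pericycle that releases nitrate to the xylem, was at 22.6 to 30.5 normalized CPM in WT roots and at 4.43 to 6.86 in the mutant, a log2 fold change of -2.15 (SE 0.19). NPF1.2 fell by 1.17, NPF2.9, which moves nitrate into the root phloem, by 0.89, and NPF2.13, which loads phloem in old leaves, by 0.65 on the log2 scale. The xylem loader NPF7.3, the vacuolar exchangers CLCa and CLCb, and NPF6.2 fell as well. NPF7.2, which removes nitrate from the xylem, was at 1.36 to 2.62 normalized CPM in WT and at 4.96 to 6.35 in the mutant, a log2 fold change of 1.45 (SE 0.24), and the anion channel SLAH2 rose by 0.37. The adjusted p of these genes with values was at most 0.00816 by the quasi-likelihood test of edgeR, adjusted by Benjamini-Hochberg. Over the alternatives the number that fell lay between 5, without WT replicate 2, and 10, and the number that rose between 1 and 2.

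Of the 26 genes of nitrite reduction, ammonium assimilation and cofactor supply, all tested, 7 rose and 1 fell, with a median log2 fold change of 0.14. Beside these 8 of 26 stand 26.6% of all genes tested, 11.3% higher and 15.2% lower. Nitrite reductase NIR1, the enzyme after nitrate reductase, was at 322, 265 and 303 normalized CPM in WT roots and at 398, 428 and 483 in the mutant, a log2 fold change of 0.55 (SE 0.09, adjusted p = 0.00595, the quasi-likelihood test of edgeR, adjusted by Benjamini-Hochberg). The plastid glucose-6-phosphate dehydrogenase G6PD3 rose by 0.41, the NADH-dependent glutamate synthase GLT1 by 0.37 and the cytosolic glutamine synthetase GLN1;3 by 0.36 on the log2 scale. RFNR1, a root ferredoxin reductase that feeds electrons to nitrite reductase, GLN2 and the asparagine synthetase ASN2 rose by less. The gene that fell was MOT1, a molybdate transporter, at 3.83, 3.22 and 4.41 normalized CPM in WT and 1.81, 3.05 and 2.32 in mutant roots, a log2 fold change of -0.67 (adjusted p = 0.0488 in the same edgeR test). The number that rose was between 1, in the fit of all 12 libraries, and 10 over the alternatives, and it was 4 without mutant replicate 2 or 3. None fell without any 1 of WT replicates 1, 2 and 3 and mutant replicates 1 and 3. The fit of all 12 libraries called 2445 of all genes tested, against 5233 in the main root fit.

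Among 35 regulators of the nitrate response 32 were tested, of which 7 rose and 3 fell by the quasi-likelihood test of edgeR, adjusted by Benjamini-Hochberg, and the median log2 fold change was -0.01. These are 10 of 32, beside the same 26.6% of all genes tested. The NIN-like transcription factors NLP8, NLP3 and NLP2 rose by 0.95, 0.76 and 0.48 on the log2 scale, and LBD38, a repressor of nitrogen-responsive genes, rose by 0.37. CEPR2, a receptor of root CEP peptides, CPK30, a calcium-dependent kinase of nitrate signalling, and the calcium sensor CBL9 had log2 fold changes of -0.37, -0.32 and -0.17. In the fit of all 12 libraries 1 regulator rose, and without WT replicate 3 it was 4. Of the 6 ammonium transporters 4 were tested, of which 2 rose and 0 fell by the quasi-likelihood test of edgeR, adjusted by Benjamini-Hochberg, with 1 lower at an unadjusted p below 0.05. AMT1;2, which takes up ammonium in inner root tissues, was at 31.6, 28.6 and 38.6 normalized CPM in WT roots and at 50.4, 55.3 and 58.2 in mutant roots, a log2 fold change of 0.73 (SE 0.12, adjusted p = 0.00525, same edgeR test). AMT2;1 rose by 0.33. In the fit of all 12 libraries 0 ammonium transporters rose. That fit called 2445 of all genes tested, against 5233 in the main root fit.

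**Figure D3:**
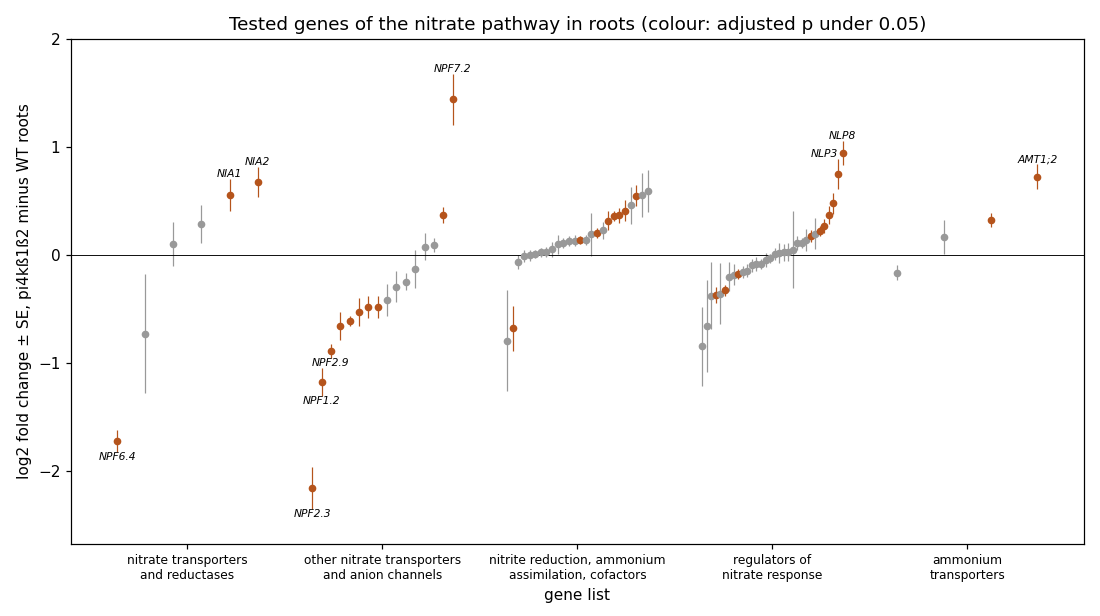
Log2 fold change ± SE of the tested genes of the members and the 4 pathway lists, pi4kß1ß2 minus WT roots, with genes ordered by value within each list and in colour where the adjusted p was below 0.05. In the list of other nitrate transporters and anion channels 8 of 16 genes lie below 0 in colour and 2 above, and in the list of nitrite reduction and assimilation 7 of 26 lie above in colour and 1 below.

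In the leaf libraries compared by label, NPF6.4 was the only member called. Of the 9 members 6 passed the filter, which here included NRT2.5 and not NRT2.1, and 0 rose and 1 fell by the quasi-likelihood test of edgeR, adjusted by Benjamini-Hochberg, against 10.5% of the 19470 genes tested, of which 3.72% rose and 6.76% fell. At an unadjusted p below 0.05 the count was again 0 higher and 1 lower. NPF6.4 was at 27.5, 33.6 and 25.9 normalized CPM in libraries labelled WT and at 15.3, 18.7 and 19.2 in those labelled pi4kß1ß2. The groups did not overlap, as for 37.6% of all genes tested in leaves. NPF6.4 was 1.69-fold lower, a log2 fold change of -0.75 (SE 0.14, adjusted p = 0.0261, the quasi-likelihood test of edgeR, adjusted by Benjamini-Hochberg). The call was lost on leaving out any 1 library other than the WT replicate 2, with the adjusted p at most 0.0994. Without both libraries that went against their labels the log2 fold change was -0.53 and the adjusted p 0.00559 in the same edgeR test, an alternative added after the data were seen.

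NIA2 was at 937, 968 and 1107 normalized CPM in leaf libraries labelled WT and at 1189.7, 1129 and 1028 in those labelled pi4kß1ß2, and NIA1 was at 453, 430.3 and 613 and at 426, 494 and 548. Both overlapped between the labels, with log2 fold changes of 0.11 (SE 0.10) and -0.07 (SE 0.16). NRT1.1 was at 184, 196 and 226 and at 211, 185 and 203 normalized CPM, a log2 fold change of -0.06 (SE 0.10). The adjusted p of these 3 genes was at least 0.525 in the quasi-likelihood test of edgeR, adjusted by Benjamini-Hochberg. NAR2.1 was at 21.7, 19.3 and 27.6 normalized CPM in libraries labelled WT and at 27.8, 17.2 and 18.7 in those labelled pi4kß1ß2, a log2 fold change of -0.15 (SE 0.22, adjusted p = 0.708 in the same edgeR test). Without both libraries that went against their labels NAR2.1 was lower, with a log2 fold change of -0.50 and an adjusted p of 0.0399 in the same edgeR test. That fit was added after the data were seen, and it left out the leaf library with the highest NAR2.1. It called 5140 of all genes tested, against 2041 in the main leaf fit.

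NRT2.5 varied widely among leaf libraries of 1 label. NRT2.5, a carrier that in Arabidopsis leaves and roots marks long nitrogen starvation, had 51, 31 and 191 counts in the libraries labelled WT and 85, 24 and 23 in those labelled pi4kß1ß2. Replicate 3 labelled WT stood highest, and the groups overlapped, with a log2 fold change of -0.88 (SE 0.87, adjusted p = 0.553, the quasi-likelihood test of edgeR, adjusted by Benjamini-Hochberg). The label of that library gives dates in place of a growth stage. NRT2.1 was at 0.469, 0.704 and 0.886 normalized CPM in libraries labelled WT and at 1.06, 0.968 and 1.45 in those labelled pi4kß1ß2, which did not overlap but did not pass the filter. NRT2.4 had 0, 1 and 1 counts and 1, 1 and 1 counts, and NRT2.2 had 0, 0 and 1 and 0, 0 and 0.

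Of the other pathway genes in leaves, compared by label with the same edgeR test, 1 of 17 transporters and channels tested rose and 1 fell. Over all genes tested in leaves 10.5% were called, 3.72% higher and 6.76% lower. The 2 genes were the vacuolar exchanger CLCb, with a log2 fold change of 1.00 (SE 0.13), and NPF1.1, with -1.03 (SE 0.10). Of 25 genes of nitrite reduction and assimilation 3 rose and 1 fell. The 3 were GLU1, the leaf ferredoxin-dependent glutamate synthase, by 0.65, and the molybdenum cofactor genes CNX2 and CNX6 by 0.45 and 0.27 on the log2 scale, and the gene that fell was MOT1. MOT1 was at 5.93, 4.08 and 8.23 normalized CPM in libraries labelled WT and at 0.718, 0.937 and 1.13 in those labelled pi4kß1ß2, a log2 fold change of -2.75 (SE 0.33). It passed the filter only through the libraries labelled WT, where it was high, so its call lends no support. Of 34 regulators 2 rose and 1 fell. BT1, whose protein lowers nitrate uptake, rose by 1.40, the bZIP factor TGA4 by 0.30, and HY5, a bZIP factor of light signalling, had a log2 fold change of -1.07. The ammonium transporters had 0 of 4 called in the same edgeR test and 1 higher at an unadjusted p below 0.05. Without both libraries that went against their labels, 2 transporters and channels rose and 4 fell, 9 genes of nitrite reduction and assimilation rose and 1 fell, 13 regulators rose and 3 fell, and 1 ammonium transporter was called in each direction. That fit called 5140 of all genes tested, against 2041 in the main leaf fit. Without WT replicate 1 or without pi4kß1ß2 replicate 2, 0 genes of any of the 4 lists were called in the same edgeR test, and without WT replicate 3 it was 1 transporter, higher. Of all genes tested these fits called only 55, 12 and 68, in that order. Without pi4kß1ß2 replicate 1, 4 transporters and channels fell, and without WT replicate 2, 5 regulators rose and 3 fell. Over all genes tested, 1331 and 2219 were called in these fits.

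Between organs, compared as root minus leaf, NIA2 and NPF6.4 were lower in roots than in leaves in libraries of both labels. In libraries labelled WT all 6 tested members were called, 2 higher, among them NRT2.1, which passed the filter only through roots, and 4 lower in roots, by the quasi-likelihood test of edgeR, adjusted by Benjamini-Hochberg, against 73.7% of the 20291 genes tested (36.3% higher and 37.4% lower, and 79.1% with groups that did not overlap). In libraries labelled pi4kß1ß2, 1 of 6 was higher and 2 were lower in roots, against 78.6% of the 20413 genes tested (39.3% in each direction, and 82.7% with groups that did not overlap). With most genes called in both comparisons, a call between organs is no mark of the members.

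NPF6.4 was lower in roots by a log2 fold change of -1.68 (SE 0.12) with WT labels and -2.68 (SE 0.13) with pi4kß1ß2 labels, 31.2% and 15.4% of the mean leaf level. The order of its 4 groups, leaf labelled WT, leaf labelled pi4kß1ß2, WT root and pi4kß1ß2 root, held with no overlap between neighbours. NIA2 was lower in roots by -1.19 (SE 0.15) and -0.64 (SE 0.07), 43.8% and 63.2% of the leaf level, and of its neighbouring groups only those of leaves overlapped. NIA1 was at 63.0% of the leaf level in WT roots, a log2 fold change of -0.66 (SE 0.19), and at 94.9% in pi4kß1ß2 roots, where the difference of -0.06 (SE 0.10) was not called. For NIA1 only the WT roots lay apart from the next group. The largest adjusted p of the called organ differences of NPF6.4, NIA2 and NIA1 was 0.0208, in the quasi-likelihood test of edgeR, adjusted by Benjamini-Hochberg.

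NRT1.1 was higher in roots with both labels, by 0.37 (SE 0.13, adjusted p = 0.0397) and 0.69 (SE 0.14, adjusted p = 0.00442) on the log2 scale, by the quasi-likelihood test of edgeR, adjusted by Benjamini-Hochberg. Its root and leaf libraries overlapped with WT labels and did not overlap with pi4kß1ß2 labels. With the groups ordered by mean, each neighbouring pair overlapped. NAR2.1 was lower in WT roots, -0.57 (SE 0.19, adjusted p = 0.0341 in the same edgeR test), and in pi4kß1ß2 roots it was not called, -0.34 (SE 0.23). NRT2.1 reached 1 CPM in 3 of 3 WT root libraries and in 0 of 3 leaf libraries labelled WT, so it was tested only through the organ where it was high. Its log2 fold change of 1.49 (SE 0.53) is therefore given as a description. With pi4kß1ß2 labels it was at 0.03 (SE 0.36). With WT labels, leaving out 1 library ended the call of NRT1.1 in 4 of 6 fits, of NAR2.1 in 4 of 6, of NIA1 in 2 of 6 and of NRT2.1 in 3 of the 3 in which it passed the filter, and of NIA2 and NPF6.4 in 0 of 6, each by the same edgeR test.

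Of the other pathway genes most also differed between organs by the same edgeR test. With WT labels 9 of 17 transporters and channels were higher and 6 lower in roots, and with pi4kß1ß2 labels 6 were higher and 8 lower. The carriers NPF7.3 and NPF2.9 and the channel SLAH2 were higher in roots with both labels, with log2 fold changes of 2.36, 2.35 and 1.53 with WT labels. NPF2.3 was higher by 3.23 with WT labels. NPF1.2 and NPF2.13 of the phloem and NRT2.7, the vacuolar carrier of seeds, were lower with both labels, at -3.41, -3.04 and -3.41 with WT labels, and NRT2.3 was at 0 in all root libraries and at a mean of 1.92 normalized CPM in leaf libraries labelled WT. Among 26 genes of nitrite reduction and assimilation 13 were higher and 9 lower with WT labels, and 13 and 10 with pi4kß1ß2 labels. GLN1;4, RFNR2, GLU2 and the root ferredoxin FD3 were higher in WT roots by 1.29 to 1.56, and the plastid enzymes GLU1 and GLN2 were at -7.16 and -3.86, with ASN2 at -1.81 and ASN1 at -1.01. Of 34 regulators 13 were higher and 12 lower with WT labels, and 12 and 13 with pi4kß1ß2 labels, HHO1, TGA1, HRS1 and NLP6 leading the former in WT (1.91 to 1.14) and SPL9, BT1 and NLP8 among the latter (-2.61 to -1.44). NLP9 had 0, 3 and 0 counts in WT roots and 100, 57 and 83 in leaf libraries labelled WT, and like NRT2.3 it passed the filter only through the leaves. With pi4kß1ß2 labels SPL9 also passed only through leaves. GLN1;5 with both labels and MOT1 with pi4kß1ß2 labels passed only through roots. A call of any of these genes lends no support, and the list counts that hold them are a description. Of the 4 ammonium transporters tested 1 was higher and 2 lower with WT labels, AMT1;3 at 2.22, AMT2;1 at -0.67 and AMT1;1 at -0.37. With pi4kß1ß2 labels 2 were higher, AMT1;3 at 2.08 and AMT1;2 at 1.86, and AMT2;1 was lower at -0.86.

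The members under the filter showed opposite organs. NRT2.5 was found almost only in leaves, with 273 counts in the libraries labelled WT against 5 in WT roots, a ratio of 77.7 with a 95% exact binomial counting interval of 32.9 to 241, and 132 counts against 3 with pi4kß1ß2 labels, a ratio of 74.5 (24.9 to 366). NRT2.4 had more counts in roots, 30 against 2 with WT labels, a ratio of 10.5 (2.68 to 91.0), and 18 against 3 with pi4kß1ß2 labels, a ratio of 3.55 (1.03 to 18.8). These intervals cover counting error and not the spread between replicates.

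**Figure D4:**
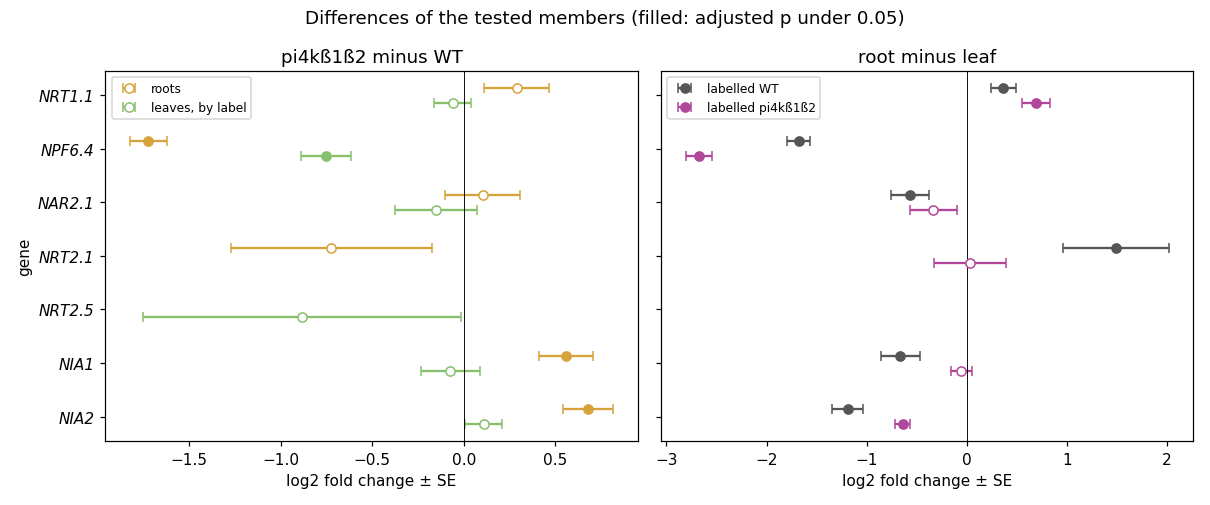
Log2 fold change ± SE of the tested members, on the left pi4kß1ß2 minus WT in roots and in leaves by label, on the right root minus leaf in libraries of each label, with filled points where the adjusted p was below 0.05. NPF6.4 lies at -1.72 in roots and -0.75 in leaves and at -1.68 and -2.68 between organs. NIA1 and NIA2 lie at 0.56 and 0.68 in roots and at -0.07 and 0.11 in leaves.

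The balance of the nitrate reductases was described per kb of exon, without a test. The level of NIA2 per kb was 1.34 to 1.42 times that of NIA1 in WT roots and 1.37 to 1.58 times in pi4kß1ß2 roots. In leaves it was 1.78 to 2.21 times with the WT label and 1.85 to 2.75 times with the pi4kß1ß2 label. Root and leaf libraries did not overlap, whereas the genotypes overlapped in each organ. The summed level of both genes was 657 to 917 normalized CPM in roots of WT and 1144 to 1189.9 in those of pi4kß1ß2, and 1390.3 to 1721 in leaf libraries.

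The difference between genotypes was itself compared between organs, as the root difference minus the leaf difference, in 1 fit of the 12 libraries. Of the 9 members 7 were tested, of which 1 was higher and 1 lower by the quasi-likelihood test of edgeR, adjusted by Benjamini-Hochberg, against 22.4% of the 20765 genes tested, 10.3% higher and 12.1% lower. For NPF6.4 the difference was -0.99 on the log2 scale (SE 0.17, adjusted p = 0.00376), so that NPF6.4 was lowered more in roots than in leaves, and it was called in all 19 alternatives, among them the fit without both doubted leaf libraries, which gave -1.21 (adjusted p = 0.000219, the quasi-likelihood test of edgeR, adjusted by Benjamini-Hochberg). For NIA2 it was 0.55 (SE 0.18, adjusted p = 0.049 in the same edgeR test), a call lost in 14 of 19 alternatives but kept without both doubted leaf libraries, at 0.63 (adjusted p = 0.0442). For NIA1 it was 0.61 (SE 0.23) and not called (adjusted p = 0.0886 in the same edgeR test), and a p that misses the threshold does not show equal differences. NRT1.1, NAR2.1 and NRT2.1 were not called either, at 0.33 (SE 0.21), 0.23 (SE 0.32) and -1.46 (SE 0.68), with adjusted p of at least 0.154 in the same edgeR test. For NRT2.5 it was 0.14 and not called (adjusted p = 0.991 in the same edgeR test), and its sign changed with 1 library left out. Its SE of 6.71 was derived from a test statistic near 0 and is no measure of spread.

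The genes whose levels followed each member most closely over the 12 libraries were found by Pearson's r of log2(normalized CPM + 1) among 20765 genes. For NPF6.4 these were AT1G46554, AT5G42200 and AT5G19860, with r of 0.985, 0.984 and 0.981, and 65 genes had an r above 0.95. For NIA2 they were RD22, EXPA1 and AT1G65500, with r of 0.979, 0.978 and 0.974, and 30 genes were above 0.95. For NRT2.5 they were PYL4, AT1G08757 and AT4G15700 with r from 0.965 to 0.954, a value that leans on the few leaf libraries where NRT2.5 was high. NRT2.2 and NRT2.4 were too low to be included. No gene exceeded 0.95 for NIA1, NRT1.1, NAR2.1 and NRT2.1. Their closest genes were AT2G04050, AT5G59790 and AT1G79160 for NIA1 (0.930 to 0.909), AT5G08570, EIF4A1 and CCS for NRT1.1 (0.919 to 0.906), BPM1, AT4G27680 and AT1G08845 for NAR2.1 (0.902 to 0.895), and ROP9, AT1G52560 and ICDH for NRT2.1 (0.883 to 0.852). The 12 points share 4 groups and mostly follow organ, so r is given as a description only.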

How the data were processed

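Single-end stranded RNAseq was done by the authors, who trimmed the reads, removed ribosomal sequences, mapped the rest with STAR on the TAIR10 genome and deposited raw counts of each gene, not normalized and free of multi-hits. Each library has counts for both strands together and for each strand, and the counts on the library strand were used here. From 0.19% to 0.302% of reads were unmapped and 1.22% to 1.66% were multi-hits. Reads of no gene or of several genes (0.954% to 1.29%, counted on the library strand) stayed out of library sizes. The 39186282 to 47886189 reads per library limit the precision of genes under a few CPM.

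A gene was kept for a comparison when 3 or more of its libraries reached 1 CPM. Differences were tested with edgeR 4.0.16 (glmQLFit with robust estimation, glmQLFTest) under R 4.3.3 on TMM-normalized libraries; p-values were adjusted by Benjamini-Hochberg over all genes tested, at a threshold of 0.05. Each SE given was the absolute log2 fold change divided by the square root of the F statistic of the test. The fits were tested on simulated data. Groups and replicate numbers came from the sample labels. Same-numbered leaf libraries deviated together (r of 0.36, 0.65 and 0.16 for numbers 1 to 3), which meets the rule for pairs above 0.1, and root libraries did not (-0.05, 0.29 and 0.59). The main leaf fits left this pairing out, so their SE and adjusted p treat the leaf libraries as unpaired. Alternatives were the likelihood ratio test, DESeq2 1.42.0, RLE normalization, no filter, counts without regard to strand, a replicate block, a fit of all 12 libraries and each replicate left out. A fit without both doubted leaf libraries was added after the data were seen. The members, lists and tests were chosen with earlier results of these data known. Named were all members and, of each pathway list and comparison, up to 4 genes per direction with the largest called change and no overlap between groups; genes outside this rule, among them NPF7.3, CLCa, NPF6.2, RFNR1, GLN2 and ASN2, were named after their values were seen. Gene names, coordinates and sequences came from TAIR10.1, in which all 9 members were matched by ID.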

Additional observations from a re-analysis of the deposited data

Results flagged for a closer look

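The following genes were picked out because the difference between genotypes itself differed between roots and leaves, in the interaction term of the quasi-likelihood test of edgeR, adjusted by Benjamini-Hochberg over 20765 genes. Each value is the root difference minus the leaf difference on the log2 scale, and rests on leaf libraries of which 2 went against their labels. Among the members it was 0.55 for NIA2 and -0.99 for NPF6.4. Among the other transporters and channels it was 0.76 for NPF1.1, -1.17 for NPF1.2, -2.31 for NPF2.3, -0.93 for CLCa and -1.50 for CLCb. Among the genes of assimilation and cofactor supply it was -0.33 for CNX2, 0.19 for CNX5 and 2.05 for MOT1. Among the regulators it was -0.45 for NLP7, 1.08 for NLP8, -0.91 for NRG2, -0.24 for CBL9, -0.66 for CPK30, -2.27 for BT1 and -1.01 for CEPR2. Over all genes tested 22.4% were called in this comparison.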

How the results depend on the processing

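NPF6.4 kept its direction and its call in all alternatives in roots, between organs and in the interaction. The 5233 genes called in roots became 2445 in the fit of all 12 libraries. The 2041 genes called in leaves became 3742 with DESeq2, 5306 in the fit of all 12 libraries and 5140 without both doubted leaf libraries, and 12 to 2219 with 1 library left out, the lowest without pi4kß1ß2 replicate 2. With 1 library left out the counts lay between 3795 and 4340 in roots, 12714 and 14810 between organs with WT labels, 13980 and 15363 with pi4kß1ß2 labels, and 3276 and 5578 in the interaction. Log2 fold changes that changed sign with 1 library left out were those of NAR2.1 in roots (-0.042 to 0.25), NRT1.1 (-0.13 to 0.027), NAR2.1 (-0.40 to 0.0074) and NIA1 (-0.16 to 0.10) in leaves, NRT2.1 (-0.13 to 0.36) and NIA1 (-0.18 to 0.037) between organs with pi4kß1ß2 labels, and NRT2.5 in the interaction (-0.74 to 0.74). With the replicate block NRT2.1 between organs with pi4kß1ß2 labels was at -0.010 and NRT2.5 in the interaction at -0.0044, and the cause was not tested. The block gave 4867 called genes in roots and 1683 in leaves and ended the call of NRT2.1 between organs with WT labels (adjusted p = 0.094 in edgeR's quasi-likelihood test) and that of NIA2 in the interaction (adjusted p = 0.0568 in the same edgeR test), and it changed no call of a member within roots or leaves. Genes under a few counts per library were limited by depth.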
